A study of Mus musculus with 6 samples.

Results

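The 10 genes described here encode phospholipases A2, prostaglandin enzymes and a partner protein of leukotriene synthesis, measured by RNA sequencing in sorted mouse astrocytes. They are the phospholipases A2 Pla2g3, Pla2g4a, Pla2g6 and Pla2g7, the cyclooxygenases Ptgs1 and Ptgs2, the prostaglandin synthases Ptges and Ptgds, the 5-lipoxygenase partner Alox5ap, and Hpgd, which breaks prostaglandins down. The members were selected by gene symbol from the 45777 genes of the expression table, by a choice made with the difference between STZ and vehicle samples already known. All 10 were listed, and all 10 had at least 1 read in every sample, the condition for being among the 22337 genes tested. Their differences between groups are therefore given as descriptions. Counts from the fits across all genes are printed beside the shares over all genes and support nothing about the 10.

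The mice carried Aldh1l1-cre/ERT2, a tamoxifen-dependent Cre driven by the astrocyte gene Aldh1l1, together with the Cre-dependent red reporter tdTomato fl/fl, and every mouse of both groups received tamoxifen (75 mg/kg for 5 days). At 8 weeks of age, males were given a single intraperitoneal dose of either streptozotocin (STZ, 150 mg/kg), a toxin of insulin-producing beta cells, or the citrate buffer alone (vehicle). Blood glucose was checked 5 days later and STZ mice were kept for being hyperglycemic, and brains were taken 21 days after the injection. TdTomato-positive cells were sorted from dissociated brain, and each sample combined cells from 3 mice, with 3 vehicle and 3 STZ samples. The labels call the samples normoglycemic and hyperglycemic and give the genotype only as WT. The comparison asks which astrocyte transcripts differ in hyperglycemia.

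Phospholipases A2 cut the fatty acid from the middle position of membrane phospholipids, and when that fatty acid is arachidonic acid it feeds the cyclooxygenases. These make prostaglandin H2, which terminal synthases turn into prostaglandin E2, prostaglandin D2 and others, while 5-lipoxygenase and its partner protein lead to leukotrienes. In brain, prostaglandins take part in fever, blood flow, sleep and inflammation. Astrocytes are among the cells that make and clear them, beside microglia, endothelial cells and the cells of the meninges.

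The 6 libraries held 52529048 to 58749115 counts, and 3 counts corresponded to 0.0511 to 0.0571 CPM, counts scaled to library size. Values within a gene are CPM after TMM normalization, and levels between genes are compared only in the authors' FPKM, which divide by transcript length. All 9 astrocyte markers (Aldh1l1, Aqp4, Slc1a3, Gja1 and 5 others) were detected in every sample, with summed levels of 22800 to 26400 CPM in vehicle and 22700 to 24500 CPM in STZ samples. The sum hid differences between single markers, and 3 of the 9 had a higher mean in STZ samples. Aldh1l1, Aqp4 and Slc1a2 were lower in every STZ than in every vehicle sample, and Gjb6 was higher. Aqp4 had 1070 to 1320 CPM in vehicle and 754 to 916 CPM in STZ samples, and Gjb6 1210 to 1440 and 1640 to 1650 CPM. RNA of other cells was present too. The 7 choroid plexus markers summed to 5960 to 17500 CPM in vehicle and 9030 to 15600 CPM in STZ samples, and the 7 oligodendrocyte markers to 713 to 2220 and 769 to 2930 CPM. In pooled RNA, fewer cells of a type and less RNA per cell cannot be told apart.

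Among the phospholipases A2, Pla2g7, the secreted platelet-activating factor acetylhydrolase, was by far the most abundant per transcript length. Its FPKM averaged 1140 over the 6 samples, rank 32 of all genes listed. Pla2g6, the calcium-independent enzyme also called iPLA2 beta, averaged 8.87 FPKM. Pla2g3, the group III secreted enzyme, averaged 3.94 FPKM. Pla2g4a, the cytosolic enzyme that prefers arachidonic acid and is activated by calcium, averaged 1.43 FPKM. Pla2g7 made up 99.0% of the summed FPKM of these 4 genes in each vehicle sample and 98.3%, 98.6% and 98.6% in STZ replicates 1, 2 and 3. This is a share of RNA and says nothing about the supply of arachidonic acid.

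Pla2g3 (gene 237625, chromosome 11, 3488158 to 3499346, mm10) had the largest difference between groups of the 10 genes. Its normalized CPM was 6.15, 6.36 and 6.62 in vehicle replicates 1 to 3 and 18.3, 16.2 and 11.7 in STZ replicates 1 to 3. Every STZ sample lay above every vehicle sample, and the 3 vehicle samples were nearly equal while the STZ samples spread widely. The mean went from 6.38 ± 0.231 to 15.4 ± 3.37 CPM (SD, n = 3 each), a ratio of 2.42. The log2 fold change in edgeR was 1.27 (SE 0.182), and it ran from 1.13 to 1.44 as each sample was left out in turn. Relative to Pla2g4a, Pla2g3 stood at 1.6, 2.56 and 1.58 times its FPKM in the vehicle samples and at 4.02, 3.07 and 3.25 times in the STZ samples. The Pla2g3 gene shares 5075 bases with Inpp5j, a phosphoinositide phosphatase gene, which had 99 to 192 reads in vehicle and 170 to 348 in STZ samples against 330 to 379 and 689 to 1112 for Pla2g3. Whether strand was used in counting is not given in the sources used here, so reads of overlapping genes may be shared. With the reads of both genes added, the log2 ratio of the group means was 1.12.

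Pla2g7 (gene 27226, chromosome 17, 43567994 to 43612202, plus strand) was the only member whose STZ samples all lay below the vehicle samples. Normalized CPM was 2900, 2500 and 2720 in vehicle and 2050, 2460 and 2210 in STZ replicates. The gap between the groups was narrow, from 2460 in the highest STZ sample to 2500 in the lowest vehicle sample. The means were 2700 ± 204 and 2240 ± 208 CPM (SD, n = 3 each), a ratio of 0.827, and the log2 fold change was -0.27 (SE 0.113). In FPKM the groups overlapped, at 1120 to 1310 in vehicle and 985 to 1140 in STZ samples. The gene 1700071M16Rik on the opposite strand shares 3170 bases with Pla2g7, and adding its reads gave a log2 ratio of -0.28.

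The other 2 phospholipases A2 overlapped between the groups. Pla2g4a (gene 18783, chromosome 1, 149829618 to 149961290, minus strand) had 4.21, 2.68 and 4.52 CPM in vehicle and 4.98, 5.77 and 3.95 CPM in STZ replicates. Vehicle replicate 2 was the lowest sample, and the log2 fold change of 0.36 (SE 0.258) was 0.15 without that sample. Pla2g6 (gene 53357, chromosome 15, 79286228 to 79328385, minus strand) had 38.7, 32.2 and 35.4 CPM in vehicle and 32.5, 30.8 and 33.9 CPM in STZ replicates. All STZ samples lay below the middle vehicle sample, and the log2 fold change was -0.13 (SE 0.0916).

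**Figure D1:**
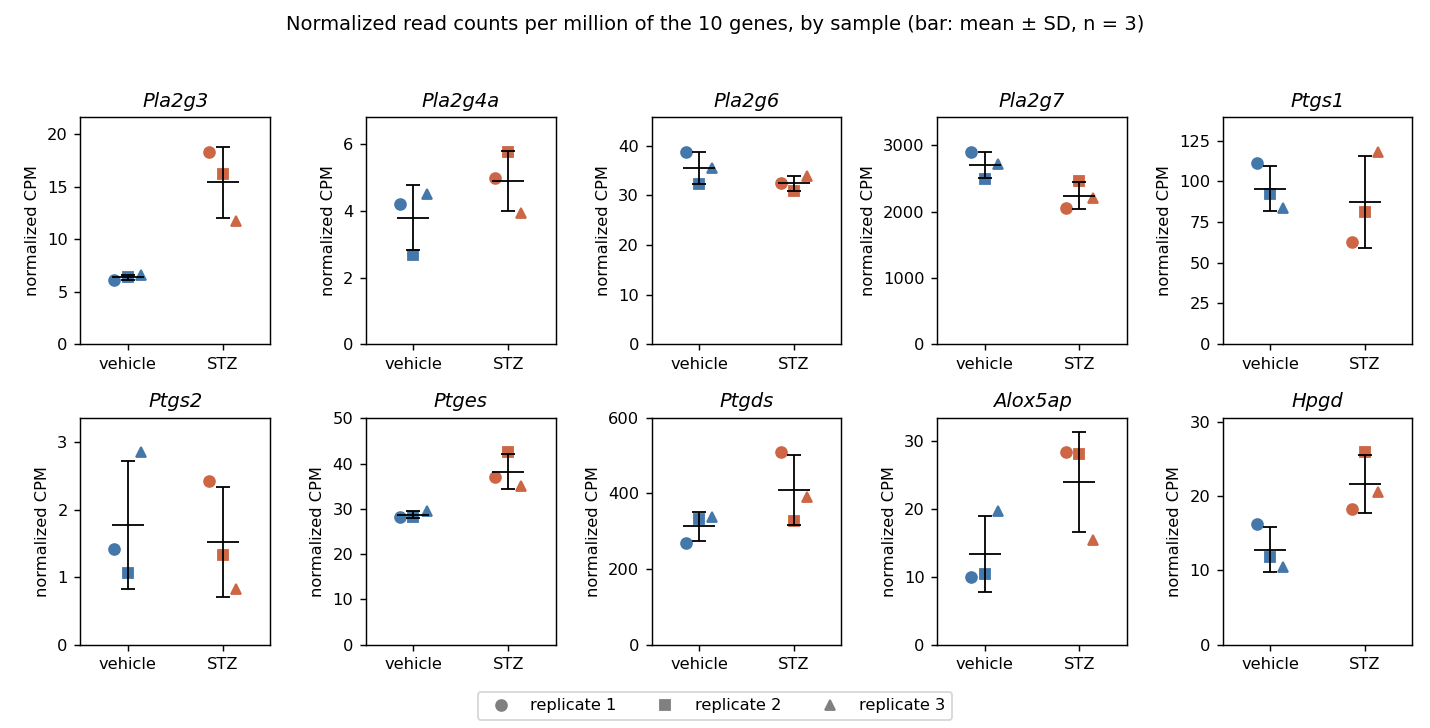
Normalized CPM (vertical axes, each from 0) of the 10 genes in the 3 vehicle and 3 STZ samples; points are samples, shaped by replicate number, and bars are the mean ± SD. Pla2g3, Ptges and Hpgd are higher in every STZ sample than in any vehicle sample, Pla2g7 is lower in every STZ sample, and the other 6 genes overlap.

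Both cyclooxygenases overlapped between the groups. Ptgs1 (gene 19224, chromosome 2, 36216742 to 36258593, plus strand), the constitutive cyclooxygenase COX-1, had 111, 92.1 and 83.6 CPM in vehicle and 62.5, 81.2 and 118 CPM in STZ replicates. STZ replicate 1 was the lowest and STZ replicate 3 the highest of all 6 samples, so the STZ samples spanned the whole vehicle range. The log2 fold change was -0.13 (SE 0.222) and changed sign, to 0.064, without STZ replicate 1. Ptgs1 is also expressed by microglia, whose 9 markers summed to 956, 648 and 663 CPM in vehicle and 661, 878 and 635 CPM in STZ replicates 1 to 3. Vehicle replicate 1 had the highest microglial sum of all samples and the most Ptgs1 of the vehicle samples, while STZ replicate 3 had the lowest sum and the most Ptgs1 of all. The part of microglia in the level of Ptgs1 was not tested.

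Ptgs2 (gene 19225, chromosome 1, 150100031 to 150108234, plus strand), the inducible COX-2, was the lowest of the 10 genes, with 48 to 163 reads a sample. It had 1.42, 1.06 and 2.85 CPM in vehicle and 2.42, 1.32 and 0.817 CPM in STZ replicates. One sample of each group was high, vehicle replicate 3 and STZ replicate 1, and the log2 fold change of -0.22 (SE 0.496) was 0.28 without vehicle replicate 3 and 0.077 without STZ replicate 3. Ptgs1 exceeded Ptgs2 in FPKM in every sample, by 42.5 to 125 times in vehicle and 32.2 to 198 times in STZ samples.

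The terminal synthases Ptges and Ptgds had similar log2 fold changes but different spreads. Ptges (gene 64292, chromosome 2, 30889471 to 30931020, minus strand), the inducible microsomal prostaglandin E synthase, had 28.2, 28.3 and 29.6 CPM in vehicle and 37.0, 42.5 and 35.0 CPM in STZ replicates. All STZ samples lay above all vehicle samples, and the vehicle samples differed from each other by little. The mean went from 28.7 ± 0.740 to 38.1 ± 3.93 CPM (SD, n = 3 each), a ratio of 1.33. The log2 fold change was 0.41 (SE 0.0923), between 0.32 and 0.47 with each sample left out.

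Ptgds (gene 19215, chromosome 2, 25466709 to 25470110, minus strand), the lipocalin-type prostaglandin D synthase that is also a major protein of cerebrospinal fluid, had 268, 333 and 337 CPM in vehicle and 509, 326 and 391 CPM in STZ replicates. STZ replicate 2 lay within the vehicle range, and STZ replicate 1 was far above the rest. The means were 313 ± 38.9 and 409 ± 92.8 CPM (SD, n = 3 each), and the log2 fold change was 0.39 (SE 0.170). Ptgds is also made by oligodendrocytes, leptomeningeal cells and choroid plexus. STZ replicate 1 had the highest oligodendrocyte sum (2930 CPM), while vehicle replicate 1, with the next highest (2220 CPM), had the least Ptgds. The 8 leptomeningeal markers summed to 66.2, 112 and 120 CPM in vehicle and 105, 98.4 and 88.8 CPM in STZ replicates. The 7 choroid plexus markers summed to 5960, 16600 and 17500 CPM in vehicle and 11000, 9030 and 15600 CPM in STZ replicates. Vehicle replicate 1 was thus lowest in both sums as in Ptgds, while STZ replicate 1, with the most Ptgds, was highest in neither. The part of these cells in the level of Ptgds was not tested. Ptgds stood at 41.5 to 50.6 times the FPKM of Ptges in vehicle and at 33.1 to 60.0 times in STZ samples.

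Alox5ap (gene 11690, chromosome 5, 149265004 to 149288153), the membrane protein that presents arachidonic acid to 5-lipoxygenase, had 9.87, 10.4 and 19.7 CPM in vehicle and 28.3, 28.1 and 15.4 CPM in STZ replicates. Vehicle replicate 3 lay above STZ replicate 3, so the groups overlapped although their means were 13.3 ± 5.50 and 23.9 ± 7.40 CPM (SD, n = 3 each). The log2 fold change was 0.84 (SE 0.327), 0.66 without vehicle replicate 1 and 1.22 without vehicle replicate 3.

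Hpgd (gene 15446, chromosome 8, 56294552 to 56321046, plus strand), the 15-hydroxyprostaglandin dehydrogenase that starts the inactivation of prostaglandins, had 16.2, 11.8 and 10.4 CPM in vehicle and 18.3, 25.9 and 20.5 CPM in STZ replicates. All STZ samples lay above all vehicle samples, with STZ replicate 1 and vehicle replicate 1 closest to each other. The mean went from 12.8 ± 3.02 to 21.6 ± 3.92 CPM (SD, n = 3 each), a ratio of 1.69, and the log2 fold change was 0.75 (SE 0.198), between 0.60 and 0.96 with each sample left out. A gene that makes prostaglandin E2 and a gene that breaks it down thus both had their STZ samples above their vehicle samples.

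The sequences before the starts of Ptges and Hpgd are shown because these were the prostaglandin genes whose groups did not overlap. They are the 250 bases upstream of the RefSeq start in GRCm38.p6, 5′ to 3′ on the gene's strand, with capitals marking matches to GGGCGG, the GC box, on either strand. RefSeq promoters were matched for 8 of the 10 members.
Ptges, chr2:30903298-30903547, minus strand, within the Ptges gene and outside its exons: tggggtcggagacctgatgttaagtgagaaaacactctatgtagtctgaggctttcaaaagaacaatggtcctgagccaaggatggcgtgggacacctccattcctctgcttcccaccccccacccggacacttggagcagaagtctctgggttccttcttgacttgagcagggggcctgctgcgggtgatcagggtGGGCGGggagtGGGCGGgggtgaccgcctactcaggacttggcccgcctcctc
Hpgd, chr8:56294302-56294551, plus strand, outside annotated genes: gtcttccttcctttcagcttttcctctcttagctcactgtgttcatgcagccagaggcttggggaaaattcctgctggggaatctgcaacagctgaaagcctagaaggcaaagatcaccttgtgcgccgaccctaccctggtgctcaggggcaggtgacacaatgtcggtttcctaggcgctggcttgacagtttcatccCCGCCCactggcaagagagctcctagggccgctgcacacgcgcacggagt
Ptges held 2 GC boxes, starting 53 and 42 bases before the start, and Hpgd held 1, starting 50 bases before it and read on the opposite strand. Of 32851 mouse promoters of the same length, 32.7% held GGGCGG. Other motifs were searched on both strands. The TATA box (TATAAA) was present in 12.4% of all promoters. The CCAAT box was present in 33.8%, the AP-1 motif (TGANTCA) in 6.75% and the NF-kB consensus in 3.90% of them. None of these 4 had a match in either window, which says only that these letters are not there. The GC content was 59.6% for Ptges and 56.8% for Hpgd against a median of 52.4% for all promoters.

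**Figure D2:**
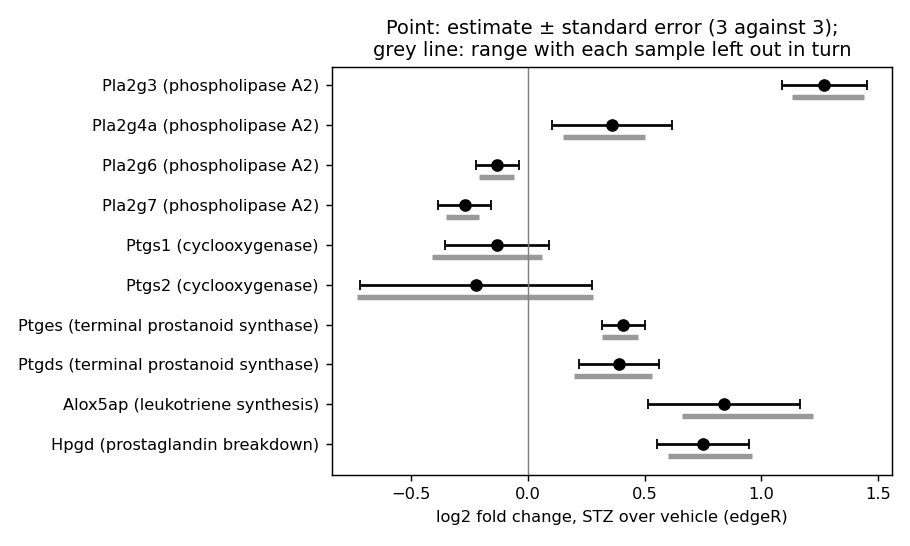
Log2 fold change of STZ over vehicle (horizontal axis) for the 10 genes with their roles; points and black bars are the edgeR estimate ± standard error (3 against 3 samples) and grey lines the range as each sample is left out in turn. The grey lines of Ptgs1 and Ptgs2 cross 0 and those of the other 8 genes do not.

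Across the 10 genes, 6 log2 fold changes were above and 4 below 0, with a median of 0.38 against 0.012 over all 22337 genes tested. With a call defined as a fold change above 1.5 at an adjusted p below 0.05, edgeR called 0 of the 10 genes and 5 of all genes (0.0224%). At an unadjusted p under 0.05, edgeR passed 5 of the 10 (Pla2g3, Ptges, Alox5ap and Hpgd higher and Pla2g7 lower) and 11.3% of all genes. DESeq2, the tool of the study's methods, called 2 of the 10 (Pla2g3 and Hpgd, both higher) and 1.05% of all genes. Ptges was past DESeq2's adjusted p but under the 1.5-fold limit. The STZ samples lay wholly above the vehicle samples for 3 of the 10 and for 8.64% of all genes, and wholly below for 1 of the 10 and for 9.85% of all genes. Because the genes were chosen from this same contrast, nothing is read from these counts. Among those past the DESeq2 threshold, Hpgd was nearest to the fold limit with a ratio of 1.69, while Ptges, at 1.33, lay outside it.

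By FPKM, the 10 genes spanned a wide range. Pla2g7 (985 to 1310 over the 6 samples), Ptgds (295 to 589) and Ptgs1 (16.8 to 34.0) followed each other, the first 2 with no overlap with their neighbours. Alox5ap (8.92 to 27.1) overlapped Ptgs1 above it and Hpgd (5.58 to 14.5), Pla2g6 and Ptges below it. Over all 6 samples, Hpgd, Pla2g6 (8.25 to 9.64) and Ptges (7.10 to 11.2) overlapped each other and could not be ordered beyond that spread. Pla2g3 (2.15 to 6.76), Pla2g4a (0.865 to 1.94) and Ptgs2 (0.171 to 0.587) came next. Pla2g3 lay below every sample of Pla2g6 and Ptges but overlapped Hpgd, while Pla2g4a lay below all samples of Pla2g3 and Ptgs2 below all samples of Pla2g4a. The order of the means within the middle group differed by condition. Samples of Hpgd and Ptges overlapped in both conditions, and those of Hpgd and Pla2g6 overlapped in vehicle. Pla2g6 and Ptges overlapped in neither condition. All Pla2g6 samples lay above all Ptges samples in vehicle (8.27 to 9.64 and 7.10 to 7.48 FPKM). In STZ they lay below them (8.25 to 9.04 and 9.09 to 11.2 FPKM). In vehicle samples the mean was highest for Pla2g6, followed by Ptges (7.25 FPKM) and Hpgd (6.85 FPKM). In STZ samples the order of the means was reversed, from Hpgd at 12 FPKM down to Pla2g6 at 8.73 FPKM.

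**Figure D3:**
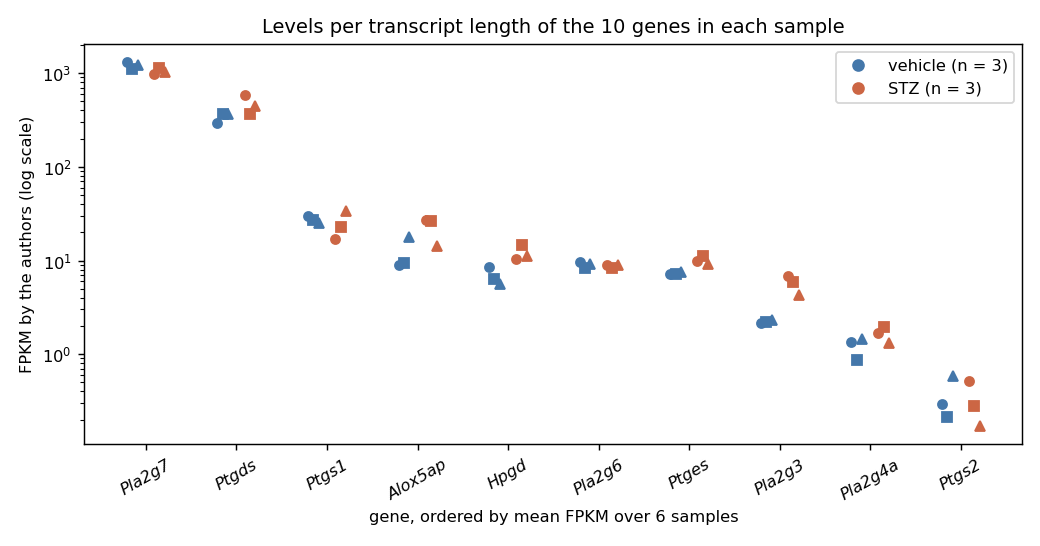
FPKM as given by the authors (log scale) of the 10 genes in each sample, ordered by their mean, with vehicle samples in blue and STZ samples in orange and replicates 1 to 3 as circle, square and triangle. Pla2g7 and Ptgds lie above all others, Ptgs2 lies lowest, and Hpgd, Pla2g6 and Ptges share one range.

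Markers of several other cell types differed between the samples and are set beside the genes with the largest differences. The 8 endothelial markers (Cldn5, Flt1, Ly6c1 and 5 others, all detected in every sample) summed to 43.8, 61.6 and 157 CPM in vehicle and 289, 220 and 157 CPM in STZ replicates, and all 8 had a higher mean in STZ samples. The 5 mast cell markers (Cma1, Mcpt4, Tpsb2, Cpa3 and Fcer1a, none at 0) summed to 6.27, 8.83 and 15.1 CPM in vehicle and 86.4, 87.4 and 39.7 CPM in STZ replicates, with all 5 means higher. The 5 neutrophil markers (S100a8, S100a9, Ly6g, Retnlg and Mmp8, none at 0) summed to 78.3, 99.7 and 529 CPM in vehicle and 701, 719 and 326 CPM in STZ replicates, again with all 5 means higher. For these 3 lists STZ replicate 3 was the lowest STZ sample and vehicle replicate 3 the highest vehicle sample. The 8 pericyte and smooth muscle markers (none at 0) summed to 136, 149 and 182 CPM in vehicle and 230, 203 and 175 CPM in STZ replicates, with 7 means higher. Among them Acta2 had 15.9 to 22.7 CPM in vehicle and 40.8 to 53.5 CPM in STZ samples, Myh11 2.93 to 3.75 and 7.13 to 11.5 CPM, and Tagln 0.597 to 1.19 and 5.0 to 6.13 CPM. Pdgfrb of the same list overlapped, at 75.6 to 82.3 CPM in vehicle and 63.0 to 83.6 CPM in STZ samples. The 9 immediate early genes (Fos, Junb, Dusp1 and 6 others, none at 0), which respond to stimulation and cell handling, summed to 475 to 629 CPM in vehicle and 678 to 825 CPM in STZ samples, with 7 means higher.

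Alox5ap stood in nearly the same order over the 6 samples as the neutrophil sum, including vehicle replicate 3 (19.7 CPM) above STZ replicate 3 (15.4 CPM). Pla2g3 had the same order as the endothelial sum over all 6 samples, apart from a tie in the latter. Vehicle replicate 3 and STZ replicate 3 had these equal endothelial sums (157 CPM). There Pla2g3 was at 6.62 and 11.7 CPM, Hpgd at 10.4 and 20.5 CPM and Ptges at 29.6 and 35.0 CPM. Only the sums were equal, and some endothelial markers were lower in STZ replicate 3 while others were higher. Cldn5 was at 50.3 and 40.8 CPM and Ly6c1 at 43.7 and 52.5 CPM in vehicle and STZ replicate 3. In the neutrophil list vehicle replicate 3 was above STZ replicate 3, opposite to Pla2g3, Hpgd and Ptges. The mast cell and immediate early sums were higher in every STZ than in every vehicle sample, as Pla2g3, Hpgd and Ptges were. In the immediate early list only Dusp1 kept the groups apart (115 to 194 CPM in vehicle, 216 to 288 CPM in STZ). The rest of that list overlapped, with Fos at 138 CPM in vehicle replicate 3 and 118 CPM in STZ replicate 3. Of the mast cell markers, Fcer1a overlapped and the others did not. In the pericyte and smooth muscle list, Acta2, Myh11, Tagln and Rgs5 were higher in every STZ than in every vehicle sample. Pdgfrb, Vtn, Kcnj8 and Abcc9 of that list overlapped between the groups. Its sum overlapped too, with 182 CPM in vehicle replicate 3 and 175 CPM in STZ replicate 3. Hpgd was highest in vehicle replicate 1 among the vehicle samples, where the endothelial, mast cell and neutrophil sums were lowest. The part of these cells and of the immediate early genes in the differences was not tested. The 5 border macrophage markers stood instead at 21.8 to 39.8 CPM in vehicle and 13.8 to 22.1 CPM in STZ samples.

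**Figure D4:**
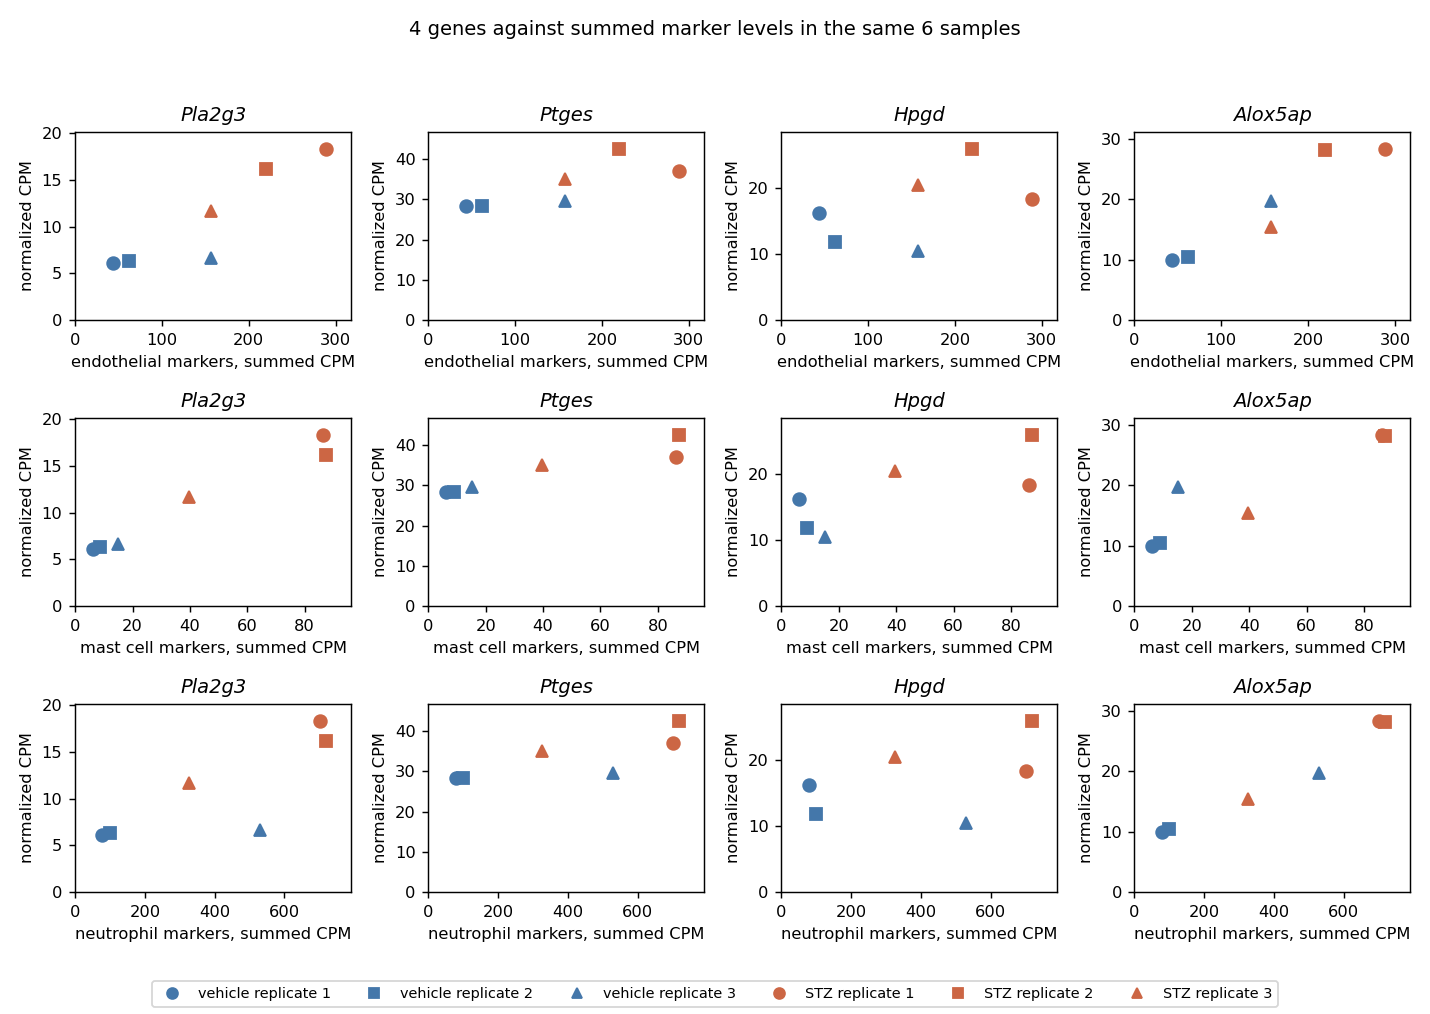
Normalized CPM of Pla2g3, Ptges, Hpgd and Alox5ap (vertical axes) against the summed CPM of endothelial, mast cell and neutrophil markers (horizontal axes, all axes from 0), 1 point a sample, vehicle in blue and STZ in orange. Vehicle replicate 3 and STZ replicate 3 (triangles) share an endothelial sum of 157 CPM. There Pla2g3, Ptges and Hpgd are higher in the STZ sample and Alox5ap is lower.

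The genes with profiles most like each member were found by the root mean square difference between log2 CPM profiles, each centred on its own mean over the 6 samples, among 16251 genes with a mean of at least 1 CPM. With so many genes and 6 samples, some lie close to any profile. Genes near to Pla2g3 were Sult1a1 (0.108) and Myl9 (0.148), beside a spread of 0.652 for Pla2g3 itself. The nearest to Alox5ap were Ahnak (0.0546), Rbpms (0.0660) and Cebpb (0.0700), beside its spread of 0.610. Ptges was nearest to 0610040B10Rik (0.0462), Vrk1 (0.0518) and Vasp (0.0581), and Hpgd, less closely, to C230035I16Rik (0.116), Gm13688 (0.134) and 1700003F12Rik (0.143). For Ptgs2, the nearest genes Smagp, Rec8 and Ces1d were 0.276 to 0.286 away, so its profile had no close match. Those of the other 5 members were Rgs14, Gm46894 and Gm46594 for Pla2g4a, Dpy19l4, Cers1 and Eml5 for Pla2g6, and Gpc6, Hdhd2 and Skida1 for Pla2g7. For Ptgs1 they were LOC115490187, 2610316D01Rik and 9330182L06Rik, and for Ptgds Lama5, Mex3a and Mybl2. Among the members themselves, Pla2g6 and Pla2g7 were the closest pair (0.131). Their own spreads were only 0.107 and 0.17, so this distance was above the spread of Pla2g6. Pla2g3 was nearest to Alox5ap (0.367).

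A list of 100 other genes of the eicosanoid pathways, written from their textbook roles, sets the members in context. Of these, 99 were listed and 83 were tested. EdgeR called 0 of the 83, while 15 had an unadjusted p under 0.05 (6 higher and 9 lower), and DESeq2 called 1, Pla2g2d, lower in STZ samples. Over all genes tested, 11.3% had an unadjusted p under 0.05, DESeq2 called 1.05%, and 10737 of 22337 log2 fold changes were below 0. The counts by role that follow are descriptions of small classes to be read beside these. The median log2 fold change was 0.01, beside 0.012 over all genes, with 43 above 0, 39 below 0 and 1 that rounded to 0.

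Among the other phospholipases A2, Pla2g2d, a secreted enzyme, was low. It had 1.40, 0.809 and 1.24 CPM in vehicle and 0.363, 0.292 and 0.289 CPM in STZ replicates, with all STZ samples below all vehicle samples. Its log2 fold change was -1.86 (SE 0.312), with an adjusted p of 0.169 in edgeR's quasi-likelihood test and 0.00558 in DESeq2. The secreted enzymes Pla2g1b, Pla2g2a, Pla2g2e and Pla2g2f, also named after their values were seen, were at 0 counts in every sample. Secreted Pla2g12a averaged 35.4 FPKM, above Pla2g3 and below Pla2g7, with a log2 fold change of -0.11 (SE 0.121). Pla2g5, another secreted enzyme, went from 11.9 ± 5.80 to 6.90 ± 2.52 CPM (SD, n = 3 each) with overlapping groups. The only other cytosolic gene tested, Pla2g4c, averaged 0.0474 FPKM. Of the intracellular enzymes, Prdx6, a peroxiredoxin with phospholipase A2 activity, averaged 897 FPKM with a log2 fold change of -0.06, and Plaat3 averaged 27.6 FPKM with -0.12. Of the 9 genes of this intracellular and platelet-activating factor hydrolase class, 7 had a log2 fold change below 0, 1 of them with an unadjusted p under 0.05.

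Annexin A1 (Anxa1) and S100a10, which bind and restrain phospholipase A2, had log2 fold changes of 1.09 (SE 0.559) and 0.46 (SE 0.173) with adjusted p-values of 0.504 and 0.402 in edgeR. Anxa1 had 17.1, 20.8 and 70.9 CPM in vehicle and 96.4, 93.1 and 42.6 CPM in STZ replicates, with vehicle replicate 3 above STZ replicate 3 as in Alox5ap, and its log2 fold change was 2.02 without vehicle replicate 3. On the endocannabinoid route, where monoacylglycerol lipase releases arachidonic acid in brain, Mgll averaged 118 FPKM with a log2 fold change of 0.04, and Abhd12 averaged 122 FPKM with -0.04. The signs of Mgll and Prdx6 changed with the sample left out. Among enzymes that activate arachidonic acid and return it to phospholipid, 7 of 9 had a log2 fold change below 0 and 3 an unadjusted p under 0.05 (11.3% over all genes). The acyl-CoA synthetase Acsl6 had 1340, 1120 and 1210 CPM in vehicle and 969, 1050 and 1050 CPM in STZ replicates. Its STZ samples were all lower, with a log2 fold change of -0.26 (SE 0.0967, adjusted p = 0.396 in edgeR). Acsl3 averaged 459 FPKM with -0.10.

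Among the other terminal synthases and reductases, none of 8 tested had an unadjusted p under 0.05 in edgeR or was called by DESeq2. Ptges3, the cytosolic prostaglandin E synthase and a chaperone partner, had 126 ± 4.88 CPM in vehicle and 125 ± 6.56 CPM in STZ samples (SD, n = 3 each), and averaged 60.4 FPKM against 8.64 for Ptges. Carbonyl reductase Cbr1 averaged 78.7 FPKM with a log2 fold change of 0.05. Of the other genes of transport and breakdown, Ptgr2, a prostaglandin reductase that acts after Hpgd, had 129, 132 and 130 CPM in vehicle and 109, 106 and 124 CPM in STZ replicates. All its STZ samples were lower, opposite to Hpgd, with a log2 fold change of -0.20 (SE 0.0767, adjusted p = 0.400 in edgeR). Cbr3 averaged 52 FPKM with 0.07, and the signs of Ptges3, Cbr1 and Cbr3 changed with the sample left out.

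The prostanoid receptors were scarce, with 1 of 8 tested at a mean of 1 FPKM or more. This was Ptger4, the prostaglandin E2 receptor EP4, at 1.64 FPKM and a log2 fold change of 0.20 (SE 0.246). The thromboxane receptor Tbxa2r averaged 0.487 FPKM with a log2 fold change of 0.73 (SE 0.470), 1.48 without vehicle replicate 3. Ptgdr, the prostaglandin D2 receptor DP1, named after its values were seen, had 0.28, 0.520 and 0.925 CPM in vehicle and 1.27, 1.39 and 1.0 CPM in STZ replicates, all higher in STZ, with an adjusted p of 0.410 in edgeR.

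On the leukotriene side, 7 of 9 tested genes of leukotriene synthesis and further metabolism had a log2 fold change above 0. Lta4h, which makes leukotriene B4, had 66.1, 66.8 and 75 CPM in vehicle and 75.1, 77.6 and 86.8 CPM in STZ replicates. The lowest STZ sample lay just above the highest vehicle sample, with a log2 fold change of 0.20 (SE 0.0857, adjusted p = 0.437 in edgeR). Ltc4s, which makes leukotriene C4, had 20.6 ± 8.49 CPM in vehicle and 13.8 ± 3.08 CPM in STZ samples (SD, n = 3 each), with a log2 fold change of -0.58 (SE 0.325) against 0.84 for Alox5ap. The leukotriene B4 receptor Ltb4r1 had 4.01, 2.2 and 6.70 CPM in vehicle and 9.66, 12.2 and 4.48 CPM in STZ replicates, again with vehicle replicate 3 above STZ replicate 3, and Cysltr1 had a log2 fold change of 0.22 (SE 0.273). The lipoxygenases Alox12 and Alox15 averaged 0.560 and 0.323 FPKM, with log2 fold changes of 1.22 (SE 0.469) and -0.54 (SE 0.436). Of the enzymes that make epoxy and hydroxy fatty acids, Cyp2j9 averaged 199 FPKM with 0.07, and Cyp4f15 averaged 160 FPKM with 0.33 (SE 0.116, adjusted p = 0.377 in edgeR).

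**Figure D5:**
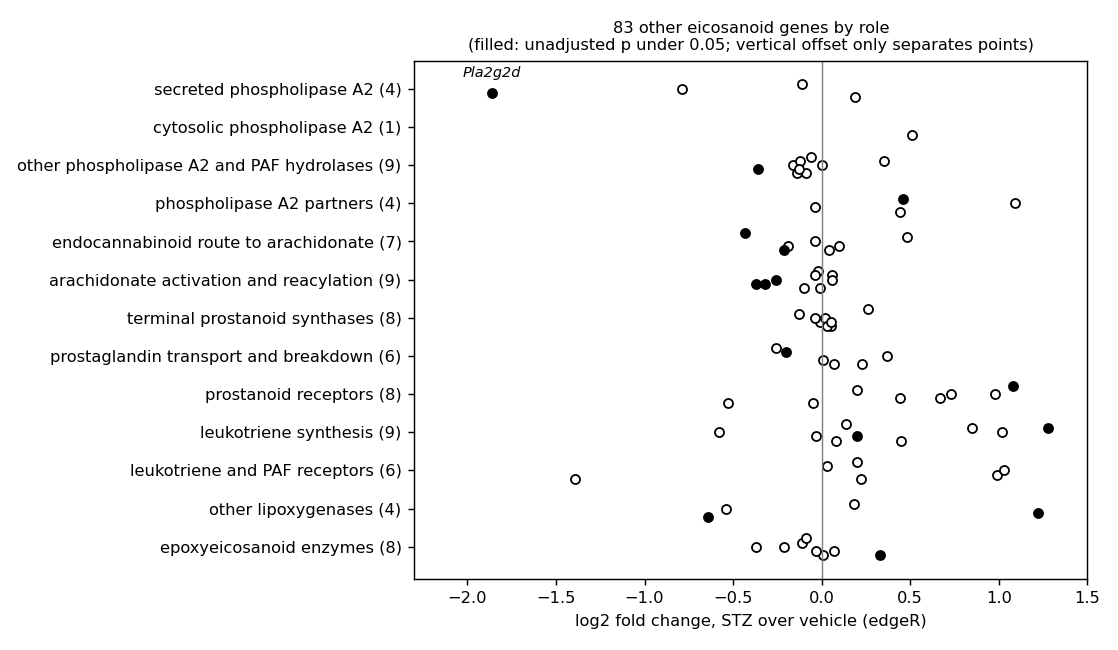
Log2 fold change of STZ over vehicle (horizontal axis) of the 83 other eicosanoid genes tested, by role with the number of genes in each; 1 point a gene, filled where the unadjusted edgeR p is under 0.05. Pla2g2d, the gene called by DESeq2, lies lowest at -1.86, and the highest gene lies at 1.28.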

How the data were processed

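RNA from 6 sorted astrocyte samples, each a pool of 3 mice, was sequenced. Per the submitters' processing notes and the methods, reads were trimmed with Trimmomatic 0.38, aligned to mm10 with HISAT2 2.1.0 and assembled with StringTie 2.1.3b. The counts deposited by the authors are whole reads per gene without normalization, and whether the counting used strand is not given in the sources used here. The authors' FPKM and TPM values are scaled by transcript length and depth. The study's removal of outlier genes was not repeated.

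Genes without a count in any one sample were left out, as in the study, and the quasi-likelihood test of edgeR 4.0.16 (R 4.3.3) was run on the other 22337, two-sided and unpaired, with TMM normalization and Benjamini-Hochberg adjustment over all of them. A call needed a fold change above 1.5 at an adjusted p below 0.05. DESeq2 1.42.0 and limma 3.58.1 on log2(TPM + 1) were alternatives, and log2 CPM used a prior count of 2. The p-values measure the spread between pools of separate mice. With totals of 52529048 to 58749115 counts, the floor of 3 counts covers counting error only. Promoter sequences came from RefSeq (GRCm38.p6), and gene positions from RefSeq and GENCODE vM21. The procedures were tested on simulated data.

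The 10 genes, the pathway list and the marker lists were chosen with earlier results of these data known. The genes named are the members, the 2 genes of highest mean FPKM in each class of the pathway list, any called by edgeR or DESeq2, and the 3 genes nearest in profile to each member, of which 1 is not reported here. Marker genes are named where a value stands beside a member. Ptgdr and 4 secreted phospholipases A2 at 0 counts fall outside this rule and were named after their values were seen.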

Additional observations from a re-analysis of the deposited data

How the results depend on the processing

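Over all genes edgeR called 5, DESeq2 234 (146 higher and 88 lower), limma on log2(TPM + 1) 0 (2544 at an unadjusted p under 0.05) and the fit with the replicate number as a block 0 (1793 at an unadjusted p under 0.05). With 1 sample left out at a time edgeR called 0 to 1 genes (1704 to 2802 at an unadjusted p under 0.05). Calls by DESeq2 numbered 2 among the 10 genes and 1 among the 83 pathway genes, while edgeR made 0 calls in either list with DESeq2's size factors, other filters, the block, or any sample left out. The block left 3 of the 10 and 9 of the 83 genes at an unadjusted p under 0.05. The same-numbered samples did not deviate together (correlations of -0.101, -0.162 and -0.184), so the numbers were not taken as pairs. Between vehicle and STZ samples of different numbers the correlations ran from -0.0202 to 0.158.

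No log2 fold change of the 36 named genes changed sign in the 216 values from settings that kept all samples, and 8 of the 10 members kept their sign with any sample left out. With 1 sample left out, the sign changed for 9 genes, with ranges of -0.41 to 0.064 (Ptgs1), -0.73 to 0.28 (Ptgs2), -0.10 to 0.011 (Prdx6), -0.010 to 0.14 (Mgll), -0.056 to 0.014 (Ptges3), -0.074 to 0.12 (Cbr1), -0.072 to 0.19 (Cbr3), -0.060 to 0.40 (Cysltr1) and -0.87 to 0.098 (Alox15). The ratio of the Pla2g6 means was 0.914 in normalized CPM and 0.970 in FPKM. The cause of these differences between settings was not tested. Without a minimum on mean CPM, 20 of the 30 genes nearest to the members in profile were shared. Adding the reads of overlapping genes, an alternative chosen after seeing the data, gave log2 ratios of 1.12 for Pla2g3 and -0.28 for Pla2g7. Ptgs2 had the fewest reads of the 10 genes, 48 to 163 a sample, and each group had 3 samples. Across the fits with 1 sample left out, the extreme log2 fold changes also differed by over 1.5 times for some genes whose sign held. Among the members these were Pla2g4a (0.15 to 0.50), Pla2g6 (-0.21 to -0.064) and Pla2g7 (-0.35 to -0.21). Ptgds (0.20 to 0.53), Alox5ap (0.66 to 1.22) and Hpgd (0.60 to 0.96) did the same. Pathway genes that did so included Anxa1 (0.75 to 2.02), Tbxa2r (0.45 to 1.48), Pla2g5 (-1.13 to -0.45) and Pla2g4c (0.22 to 0.90).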
